A study of Bos taurus with 18 samples.

Results

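Exonic circRNAs with a predicted length below 400 bases were studied in MAC-T, a line of cow mammary epithelium made to grow without limit. They were taken from the authors' table by source class and predicted length, with no use of their reads or peaks, and numbered 868 of the 3914 circRNAs of the series and 32.6% of its 2660 exonic circRNAs. The cells were plated at 200000 per well, cultured for 12 h, and then kept for another 24 h without bacteria (control group) or together with bacteria killed by heat, either *S. aureus* or *E. coli*, at 10 bacteria per cell (MOI 10). Each group had 3 wells. Every well gave an input library, in which circRNAs were counted, and an immunoprecipitated (IP) library pulled down with an antibody against N6-methyladenosine (m6A), so the 9 wells gave 18 libraries. The replicates were wells of 1 cell line, and p-values therefore measure only the spread between wells. The bacteria were dead, and the cells were a single immortalized line, which limits these groups as a model of infected udder tissue. Markers of epithelial, stromal and immune cells could hardly be checked, because of the 12 marker genes looked up only CDH1 (E-cadherin of epithelial junctions) had a circRNA in the table, with 6 junction reads.

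A circRNA forms when the end of an exon is spliced back onto the start of the same or an earlier exon, which closes the RNA into a ring without free ends. Rings resist exonucleases and so can outlast their linear mRNA, and a short ring holds few exons and little room for protein binding or for a methylated site. m6A is the most common internal mark of mRNA. It is set by the METTL3 and METTL14 complex, removed by FTO or ALKBH5 and read by YTH proteins, and it has been reported on circRNAs as well. A circRNA was counted here by the reads that cross its back-splice junction, and predicted length means the summed length of the exons expected inside the ring.

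The short exonic circRNAs were mostly rings of 200 to 399 bases drawn from a longer stretch of genome. Their median predicted length was 296 bases (quartiles 242 and 346, range 85 to 399). Only 3 were shorter than 100 bases and 76 had 100 to 199 bases, whereas 377 had 200 to 299 and 412 had 300 to 399. The shortest came from RNF24, which encodes a RING finger protein (85 bases, chromosome 13, 51242220 to 51244429 in bosTau9, in which all positions are given). It was followed by 2 circRNAs of 94 bases, from RPL17, a protein of the large ribosomal subunit (chromosome 24, 49153268 to 49153451), and from RC3H1, the mRNA decay regulator roquin (chromosome 16, 55351954 to 55352047). RNF24 and RPL17 had 2 reads each and RC3H1 had 1, each in a single well. The genomic distance between the back-spliced ends had a median of 2973 bases (range 94 to 96741), compared to 9102 bases for exonic circRNAs of 400 to below 1000 bases and 20117 bases for those of 1000 bases or more. In 76 circRNAs (8.76%) this distance equalled the predicted length, so that no intron lay between the ends and the ring was a single block. The same held for 58 of 1249 (4.64%) exonic circRNAs of 400 to below 1000 bases and 39 of 543 (7.18%) of 1000 bases or more. The length was a multiple of 3 in 319 circRNAs (36.8%), compared to 33.9% and 36.8% in the middle and long classes.

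**Figure D1:**
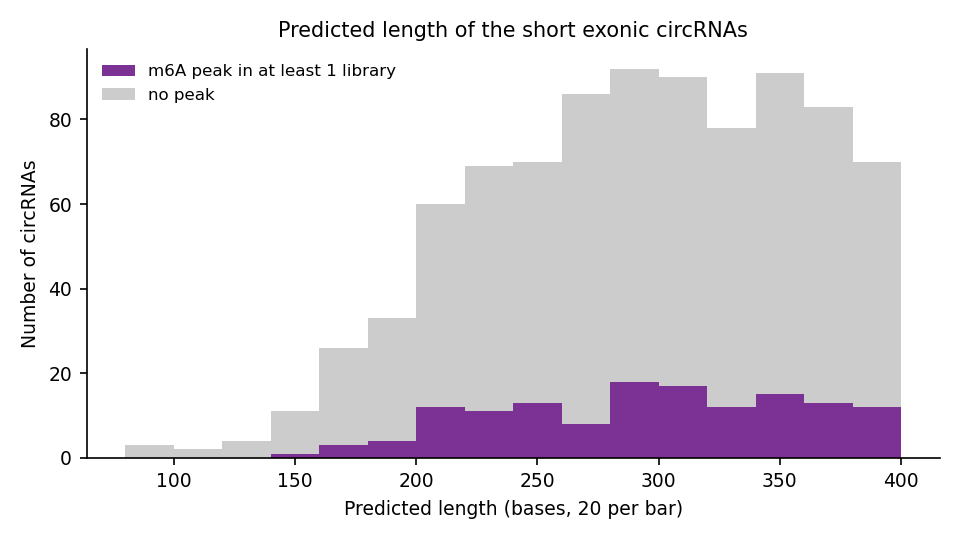
Predicted length of the 868 short exonic circRNAs in bars of 20 bases, with the number of circRNAs on the vertical axis. The lower, coloured part of each bar counts the 139 circRNAs with an m6A peak in at least 1 IP library, and few circRNAs of any kind lie below 200 bases.

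At the limit itself there was no step. The 40 exonic circRNAs of 390 to 399 bases had 82 junction reads and 6 of them carried a peak, and the 39 of 400 to 409 bases had 90 reads and 8 carried a peak. The short exonic circRNAs came from 731 host genes, of which 630 gave a single member, and 263 hosts (36.0%) also gave a longer exonic circRNA. A back-splice end was shared with another circRNA of the table in 243 of the 868 (28.0%), compared to 33.9% in the middle and 40.0% in the long class.

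The host with most short exonic circRNAs was DIAPH3, a formin that builds actin filaments, with 6 rings of 168 to 388 bases. CD44, DENND1B, FTO, REPS2 and SCEL were among the hosts with 4 each. The reads of these rings were few and scattered. The 6 DIAPH3 circRNAs had 12 reads in the control wells, 2 in the *S. aureus* wells and 13 in the *E. coli* wells, and 10 of the latter came from a single ring (293 bases, chromosome 12, 2436832 to 2452607) in *E. coli* well 3. The 4 rings of FTO, the m6A demethylase, shared their ends with one another (chromosome 18, 22207985 to 22277293) and had 1 read in control and 6 in *E. coli* wells. SCEL, a protein of the cornified envelope of epithelia, gave 6 reads in *S. aureus* wells, 3 in *E. coli* wells and 0 in control wells. CD44, a receptor for hyaluronan, gave 5 reads in all.

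Every member had at least 1 junction read, but most were seen once. A single well accounted for all reads of 700 short exonic circRNAs (80.6%), compared to 81.6% in the middle and 84.3% in the long class. In total 327 (37.7%) had 1 read, compared to 41.6% and 40.9%. Only 19 were detected in 5 or more wells, 25 had 10 or more reads, and no member was seen in all 9 wells. At least 1 read was found for 530 members in control wells, 147 in *S. aureus* wells and 351 in *E. coli* wells. Of the 868, 404 (46.5%) were seen only in control wells, 94 (10.8%) only in *S. aureus* wells and 237 (27.3%) only in *E. coli* wells. The middle class had 51.3%, 11.1% and 24.8% and the long class 49.7%, 11.2% and 28.2%. All 3 groups had reads of 27 members (3.11%), compared to 2.32% and 2.58% in the middle and long classes. With so few reads, a missing circRNA was below detection and cannot be called absent.

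The number of junction reads on short exonic circRNAs was lowest in the *S. aureus* group. The control wells held 387, 403 and 513 such reads, the *S. aureus* wells 114, 76 and 91, and the *E. coli* wells 286, 275 and 251, out of 1529 to 2057, 361 to 402 and 909 to 962 junction reads of all circRNAs. As a rate per 1000000 clean input reads this was 5.29, 5.84 and 6.29 in control (5.81 ± 0.502, SD, n = 3), 1.38, 1.01 and 1.23 in *S. aureus* (1.21 ± 0.187, SD, n = 3) and 4.66, 4.28 and 3.94 in *E. coli* wells (4.29 ± 0.361, SD, n = 3). No group overlapped another. The rate was thus 4.81-fold lower in the *S. aureus* group and 1.35-fold lower in the *E. coli* group than in the control group. Each comparison gave p = 0.10 in the two-sided exact permutation test, the smallest p that 3 wells against 3 allow. Among circRNAs seen in at least 2 input libraries, the *E. coli* difference shrank from -1.52 to -0.384 and the groups overlapped (p = 0.300, exact permutation test). The clean input reads numbered 69033572 to 81506016 in control, 74087654 to 82429030 in *S. aureus* and 61407072 to 64304914 in *E. coli* wells. A rate per clean input read does not give the amount of circRNA per cell, and the cause of the lower rates was not tested.

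As a share of all junction reads, the short exonic circRNAs were higher in the *E. coli* group only by a margin that rested on their longer members. They took 25.3%, 23.5% and 24.9% of the junction reads in control wells, 29.7%, 21.1% and 22.6% in *S. aureus* wells and 31.1%, 28.6% and 27.6% in *E. coli* wells. The *S. aureus* wells overlapped both other groups, and their 95% intervals (Wilson), which cover counting error only, were wide (25.3 to 34.4%, 17.2 to 25.6% and 18.8 to 27.0%). The *E. coli* wells all lay above the control wells, by 4.52 percentage points on average (p = 0.10, adjusted p = 0.300 over the 3 comparisons, exact permutation test). The difference was 0.810 points with a limit of 300 bases, where the groups overlapped (p = 0.20, exact permutation test). Within the short class, members of 300 to 399 bases took 52.8%, 48.7% and 50.6% of the short exonic reads in *E. coli* wells, above the 46.5%, 45.7% and 42.9% of control wells. *S. aureus* wells had 39.5%, 34.2% and 39.6%, below all control wells. The share of detected circRNAs that were short and exonic was also higher in *E. coli* wells (27.4%, 25.5% and 26.2%) than in control wells (24.7%, 22.2% and 22.9%), by 3.09 points (p = 0.10, adjusted p = 0.300, exact permutation test).

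**Figure D2:**
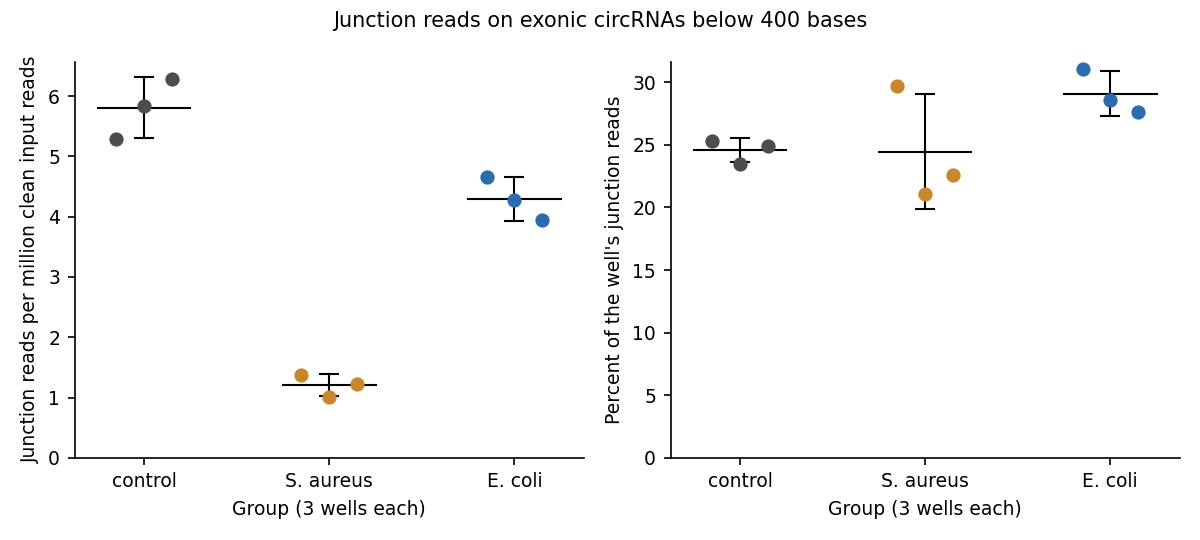
Junction reads on the 868 short exonic circRNAs as a rate per 1000000 clean input reads (left) and as a percent of all junction reads of the well (right). Points are the 3 wells of a group and black lines the mean ± SD. On the left the *S. aureus* wells lie at 1.01 to 1.38, below the 3.94 to 4.66 of *E. coli* and the 5.29 to 6.29 of control wells, while on the right they overlap both groups.

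The 10 members with most reads held 260 of 2396 reads (10.9%), so no single ring dominated. LMO7, a LIM domain protein of epithelial junctions and the actin skeleton, gave the most widely detected one, together with SLC30A7. Its ring of 177 bases (chromosome 12, 50767357 to 50793458) had 8, 5 and 8 reads in control wells, 3, 0 and 3 in *S. aureus* wells and 5, 8 and 1 in *E. coli* wells. As raw counts, the *S. aureus* values lay below all control values, and *E. coli* and control overlapped. The *S. aureus* wells held only 361 to 402 junction reads of all circRNAs, compared to 1529 to 2057 in control wells. The lower counts therefore do not show a lower share of LMO7 among the junction reads. MED17, a subunit of the Mediator complex that links transcription factors to RNA polymerase, gave a ring of 387 bases (chromosome 29, 1038665 to 1039763) with 4, 0 and 15 reads in control, 0, 0 and 0 in *S. aureus* and 7, 11 and 4 in *E. coli* wells. It was found in every *E. coli* well and in no *S. aureus* well. SLC30A7, a zinc transporter of the Golgi, gave a ring of 331 bases with 1, 1 and 5 reads in control, 2, 0 and 2 in *S. aureus* and 2, 6 and 4 in *E. coli* wells, and all groups overlapped. USP3, which removes ubiquitin from histones, gave a ring of 193 bases with 2, 6 and 9 reads in control, 2, 0 and 2 in *S. aureus* and 1, 1 and 0 in *E. coli* wells.

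The ring of SMC5 (195 bases), a subunit of a chromosome maintenance complex for DNA repair, had 1, 5 and 1 reads in control, 0, 0 and 4 in *S. aureus* and 2, 3 and 5 in *E. coli* wells. GFM2, a factor for ribosome recycling in mitochondria, gave a ring of 330 bases with 4 reads in each control well, 2, 0 and 0 in *S. aureus* and 4, 1 and 1 in *E. coli* wells. Its control value was the same in all wells, the most even among the leading members. YAF2, a partner of Polycomb proteins, gave a ring of 233 bases (chromosome 5, 38481622 to 38481947) with 1, 3 and 2 reads in control, none in *S. aureus* and 3, 6 and 4 in *E. coli* wells. ANKS3, an ankyrin repeat protein linked to cilia, gave a single-block ring of 302 bases (chromosome 25, 3818939 to 3819240) with 1, 7 and 7 reads in control, none in *S. aureus* and 1, 2 and 0 in *E. coli* wells. FAM126A, part of the complex that holds a phosphatidylinositol kinase at the plasma membrane, gave a ring of 365 bases (chromosome 4, 31635828 to 31639619) with 0, 4 and 6 reads in control, none in *S. aureus* and 7, 1 and 0 in *E. coli* wells. The uncharacterized LOC101907523 had 3, 12 and 8 reads in control, 0, 0 and 2 in *S. aureus* and 9, 2 and 0 in *E. coli* wells (204 bases).

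Only 28 of the 868 short exonic circRNAs had at least 2 reads in at least 3 libraries and were tested, among 79 circRNAs in all, with edgeR's quasi-likelihood test (TMM scaling on total junction reads). Since this filter keeps a ring also where it is high in 1 group only, the 28 do not stand for all members. A ring without any *S. aureus* read can pass it through the other wells, so the direction of the calls can follow from the filter. Together they had 234 reads in control, 53 in *S. aureus* and 148 in *E. coli* wells. Of the short exonic reads of a well, this was 11.9 to 21.1% in control, 11.8 to 23.1% in *S. aureus* and 13.9 to 20.6% in *E. coli* wells, so the groups overlapped. With the limits of the study, a 2-fold change and an edgeR p-value of 0.05 before adjustment, 4 of the 28 (14.3%) were lower and 0 higher in *S. aureus* than in control, against a background of 16.5% lower and 0% higher among the 79. In *E. coli* against control 1 of 28 (3.57%) was lower and 0 higher, against 7.59% lower and 1.27% higher. In *S. aureus* against *E. coli*, 3 of 28 (10.7%) were lower and 0 higher, against 12.7% lower and 2.53% higher. After Benjamini-Hochberg adjustment over the 79, 0 passed 0.05 in any comparison by edgeR, where 4, 1 and 3 members had an unadjusted p of at most 0.05. DESeq2 gave 2, 0 and 2 and edgeR's exact test 3, 0 and 2 at an unadjusted p, and 0 after adjustment. With only 4, 1 and 3 members called, their shares do not set the short exonic circRNAs apart from all tested circRNAs.

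The members past the study's thresholds between *S. aureus* and control were MED17, ANKS3, VRK1 and FAM126A, each with an adjusted p of 0.21 in edgeR's quasi-likelihood test. All had 0 reads in the 3 *S. aureus* wells, so their folds are lower bounds against a floor of 3 reads over the group. Per clean input read, MED17 was at least 6.56-fold, ANKS3 at least 5.18-fold and FAM126A at least 3.45-fold lower. As a share of all junction reads, these bounds fell to 1.37, 1.08 and 0.721, so the last does not show a lower share. VRK1, a nuclear kinase that acts on histones, had 2 reads in each control well, none in *S. aureus* and 1, 0 and 0 in *E. coli* wells (221 bases). Its 6 control reads were as many as those of YAF2, for which the bounds were 2.07-fold per clean input read and 0.433 as a share. VRK1 therefore does not show a lower share either. Without control well 3, in which MED17 had 15 of its 19 control reads, 0 members passed, without control well 2 or *S. aureus* well 1 only 1 passed, without *S. aureus* well 2 or 3 it was 2, and without *E. coli* well 3 it was 6.

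Between *S. aureus* and *E. coli*, MED17 (adjusted p = 0.129), YAF2 (adjusted p = 0.146) and FAM126A (adjusted p = 0.286) passed in edgeR's quasi-likelihood test. Their lower bounds were 8.97-fold, 5.30-fold and 3.26-fold per clean input read and 3.01-fold, 1.78-fold and 1.10-fold as a share of junction reads. MED17 and YAF2 had reads in every *E. coli* well, and FAM126A had 7 of its 8 in *E. coli* well 1. Between *E. coli* and control only NSUN6 passed (adjusted p = 0.494, edgeR). NSUN6, which methylates cytosines in RNA, gave a ring of 236 bases (chromosome 13, 33069480 to 33074922) with 2, 0 and 8 reads in control, 2, 0 and 0 in *S. aureus* and 0 in all *E. coli* wells, at least 2.82-fold lower than control per clean input read and at least 1.75-fold as a share. No member passed when control well 1 or 3, *S. aureus* well 1 or *E. coli* well 2 was left out, and 2 passed without *E. coli* well 3.

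**Figure D3:**
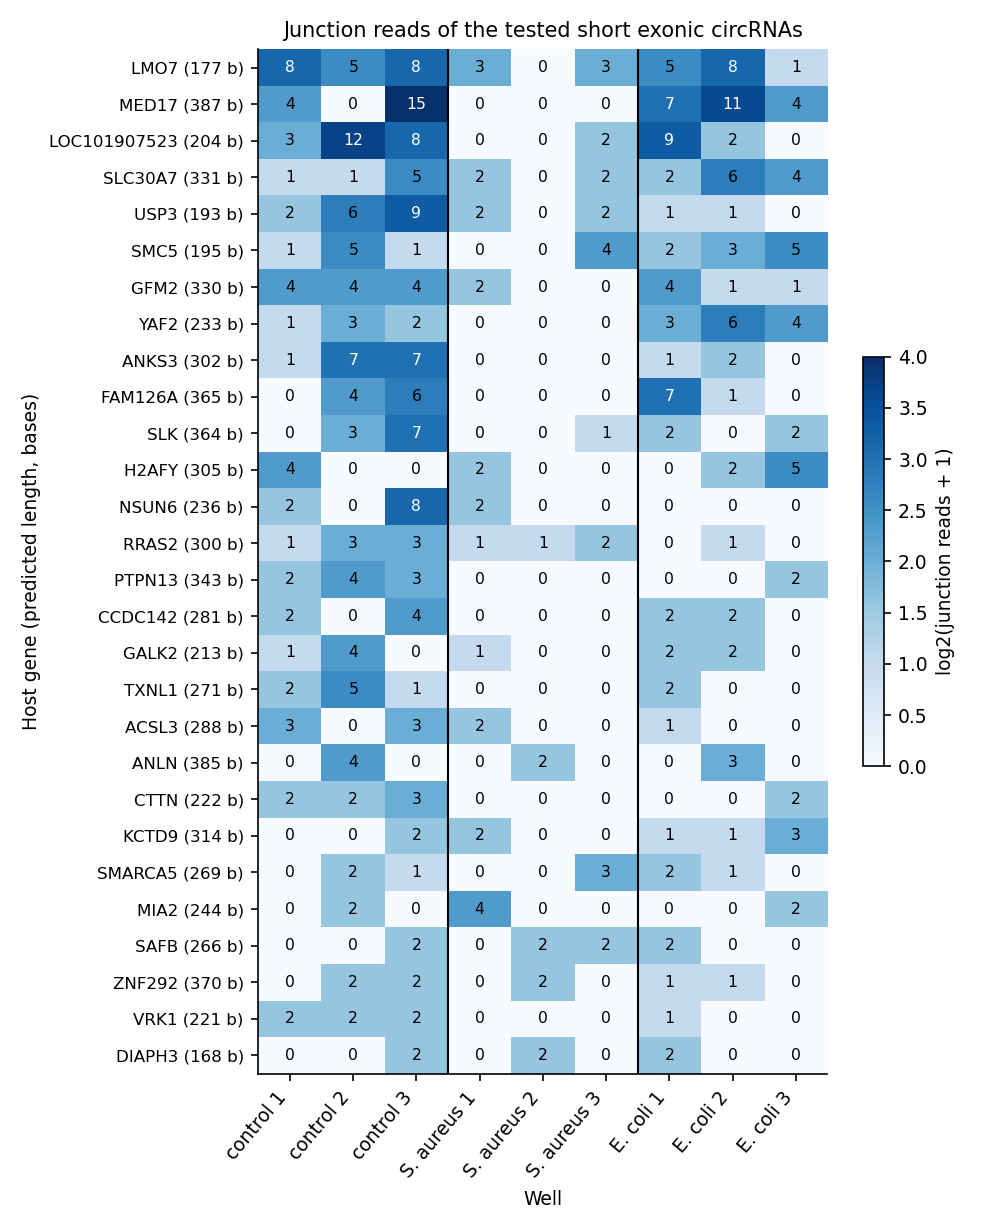
Junction reads of the 28 tested short exonic circRNAs in the 9 wells, one row per circRNA named by host gene and predicted length, ordered by total reads. Numbers are reads and the shade is log2(reads + 1). The middle block of *S. aureus* wells is the palest, with 23, 9 and 21 reads over the 28 circRNAs compared to 46, 80 and 108 in control and 59, 54 and 35 in *E. coli* wells.

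Among the other tested members, RRAS2, a small GTPase of the RAS family, was detected in all 3 *S. aureus* wells (1, 1 and 2 reads), in all control wells (1, 3 and 3 reads) and in *E. coli* well 2 alone (0, 1 and 0 reads), and it was the only member seen in every *S. aureus* well. SMARCA5, the ATPase of ISWI chromatin remodelers and host of a circRNA much studied in human tumors, gave a ring of 269 bases with 0, 2 and 1 reads in control, 0, 0 and 3 in *S. aureus* and 2, 1 and 0 in *E. coli* wells. H2AFY, the histone variant macroH2A, had 4, 0 and 0, then 2, 0 and 0, then 0, 2 and 5 reads in control, *S. aureus* and *E. coli* wells. MIA2, a receptor for cargo at sites of exit from the endoplasmic reticulum, had 0, 2 and 0 reads in control, 4, 0 and 0 in *S. aureus* and 0, 0 and 2 in *E. coli* wells. None of these passed the thresholds.

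Some rings outside the tested set had most or all of their reads in a single well. The ring of FRYL (262 bases) had 10 reads in control well 3 and 1 read elsewhere, STAU2 (296 bases), a protein of RNA transport, had 12 of its 15 reads in control well 3, and BAZ1A (279 bases, single block), a chromatin remodeling subunit, had all 6 reads in *S. aureus* well 3. The ring of ITGA6 (305 bases), the laminin-binding integrin chain of epithelial hemidesmosomes, had 0, 4 and 7 reads in control wells and none in the 6 treated wells, at least 3.8-fold lower in *S. aureus* and at least 3.11-fold lower in *E. coli* per clean input read. As a share of junction reads the bounds were 0.794, which shows no lower share, and 1.93.

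The host genes were also grouped by function, as a description with no test. Adhesion, matrix and actin genes gave 58 members (6.68%), compared to 6.64% of all circRNAs. They had 94 reads in control, 18 in *S. aureus* and 57 in *E. coli* wells, which was 7.21%, 6.41% and 7.02% of the short exonic reads, and 3 of the 58 were tested, those of CTTN (cortactin), ANLN (anillin) and DIAPH3. Kinases and phosphatases gave 37 members (4.26%, 3.93% of all circRNAs) with 80, 7 and 30 reads, or 6.14%, 2.49% and 3.69%. PTPN13, a tyrosine phosphatase, had 2, 4 and 3 of these reads in control wells, none in *S. aureus* and 0, 0 and 2 in *E. coli* wells. Chromatin and transcription genes gave 32 members (3.69%, 3.88% of all) with 24, 17 and 35 reads, or 1.84%, 6.05% and 4.31%. BAZ1A gave 6 of the *S. aureus* reads, all in well 3. These shares hold for the listed genes alone, since MED17 (19, 0 and 22 reads), YAF2 (6, 0 and 13) and H2AFY (4, 2 and 7) are outside the list. RNA processing and translation genes gave 30 members (3.46%, 3.53% of all) with 49, 9 and 30 reads.

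Membrane trafficking genes also gave 30 members (3.46%, 2.91% of all), with 34, 5 and 22 reads. Ubiquitin ligases and deubiquitinases gave 25 members (2.88%, 3.19% of all) with 50, 12 and 8 reads, or 3.84%, 4.27% and 0.985%, and the control reads were led by USP3 with 17. Hosts of circRNAs much studied in human cells gave 22 members (2.53%, 2.5% of all). Genes of innate immunity, inflammation and cell death gave only 7 members (0.806%, 1.10% of all) with 6, 1 and 8 reads. Of these, TANK, an adaptor of NF-kappaB and interferon signaling, had 1, 1 and 1 reads in control and 0, 0 and 2 in *E. coli* wells, and TNFAIP8, a regulator of apoptosis, had 4 reads in a single well.

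m6A peaks on short exonic circRNAs were plentiful in the control group, fewer in the *E. coli* group and nearly missing in the *S. aureus* group. The IP libraries of the control wells had 133, 113 and 128 peaks on them, those of the *S. aureus* wells 0, 1 and 2, and those of the *E. coli* wells 61, 74 and 54. The groups did not overlap, and each comparison gave p = 0.10 in the exact permutation test, the smallest possible. This order depends on the false discovery rate (FDR) that the peak tables carry. It was 13.9 to 100% for control peaks and 15.1 to 27.3% for *S. aureus* peaks, but 1.34 to 18.5% for *E. coli* peaks, so that at an FDR of at most 5% the control and *S. aureus* wells kept 0 peaks and the *E. coli* wells 48, 66 and 42. Between libraries the FDR did not follow the strength of a peak. The ARGLU1 peak of control well 1 had a score of 3100 at an FDR of 13.9%, and the CTTN peak of *E. coli* well 2 a score of 63.3 at 1.54%. The FDR therefore does not show that control peaks were the weaker ones. Short exonic circRNAs held 9.79%, 9.93% and 10.4% of all peaks in control, 0%, 3.70% and 7.14% in *S. aureus* (of 27 to 29 peaks) and 9.34%, 8.63% and 8.37% in *E. coli* libraries, again with no overlap (p = 0.10 each, exact permutation test). Of the peaks on exonic circRNAs alone the *S. aureus* shares were 0%, 12.5% and 22.2% and overlapped the 13.8%, 13.9% and 14.7% of control libraries (p = 0.700, exact permutation test). Among circRNAs seen in at least 2 input libraries the *E. coli* shares of 15.8%, 14.3% and 12.0% overlapped the 15.9%, 16.1% and 13.7% of control libraries.

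Over all 9 IP libraries, 139 of the 868 members (16%) carried a peak at least once. In the control group 128 members (14.7%) had a peak in at least 1 library and 72 (8.29%) in all 3, compared to 26.4% and 17.7% of all 3914 circRNAs. In the *E. coli* group it was 84 (9.68%) and 28 (3.23%), compared to 18.6% and 9.86%. In the *S. aureus* group it was 2 (0.230%) and 0, compared to 0.843% and 0.485%. Of the members with a peak in the *E. coli* group 88.1% also had one in the control group, and of those in the control group 57.8% had one in the *E. coli* group. By the counts that the paper gives for circRNAs with a peak, both shares were higher over the whole series.

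Within the exonic circRNAs, a peak was found less often on a short ring than on a longer one, while the order per kilobase of ring differed between groups. In the control libraries 12.4%, 10.6% and 11.1% of short members carried a peak, compared to 21.2%, 18.2% and 18.9% of exonic circRNAs of 400 to below 1000 bases and 46.8%, 42.7% and 43.6% of those of 1000 bases or more. In the *E. coli* libraries the short members had 5.76%, 6.91% and 5.30%. Over the 9 libraries the short class was lower than the middle class by 4.47 percentage points on average (lower in 7 of 9, p = 0.0156) and lower than the long class by 19.9 points (lower in 9 of 9, p = 0.00391, both exact sign-flip permutation tests). In the 6 control and *E. coli* libraries alone the differences were -6.69 and -29.6 points, with all 6 lower. Per kilobase of predicted length, however, the short class had 0.527, 0.448 and 0.507 peaks in control libraries, above the 0.472, 0.392 and 0.421 of the middle class and the 0.477, 0.406 and 0.429 of the long class. In *E. coli* libraries it had 0.242, 0.293 and 0.214, compared to 0.206, 0.299 and 0.220 in the middle and 0.247, 0.304 and 0.229 in the long class. In control libraries the short class was higher by 0.0659 ± 0.0177 peaks per kilobase than the middle and by 0.0568 ± 0.0187 than the long class (SD, n = 3, 3 of 3 higher in both). In *E. coli* libraries the differences were 0.00802 ± 0.0240 (1 of 3 higher) and -0.0103 ± 0.00506 (3 of 3 lower). With 3 libraries the exact sign-flip permutation test cannot go below p = 0.250. Over all 9 libraries the differences were +0.0252 (p = 0.0938) and +0.0151 (p = 0.242, exact sign-flip permutation tests).

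**Figure D4:**
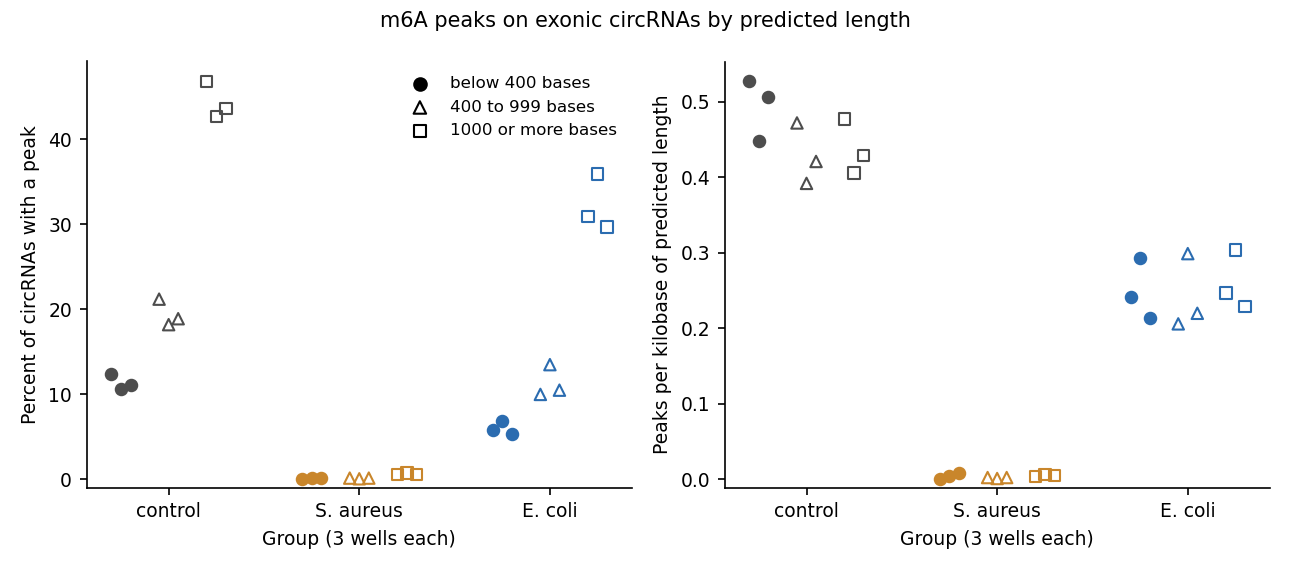
Percent of exonic circRNAs with an m6A peak (left) and peaks per kilobase of predicted length (right) in each well, with symbols for the 3 length classes and filled circles for those below 400 bases. On the left the short class lies lowest in the control and *E. coli* groups (10.6 to 12.4% and 5.30 to 6.91%), and on the right the classes of a group lie close together.

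The peaks on the short exonic circRNAs followed blocks of the ring rather than narrow sites. The 566 peaks had a median length of 147 bases (range 24 to 388), compared to 192 and 313 bases on the middle and long classes. Of the 181 distinct places with a peak, 133 had one in at least 2 libraries, and in 131 of these (98.5%) all libraries gave exactly the same start and end. The same was true of 99.2% and 98.4% of the places in the longer classes, so the edges carry no information on the position of the mark within the block. An edge of the peak coincided with an end of the ring in 490 of 566 peaks (86.6%), compared to 70.3% and 43.4% in the longer classes. The peaks covered a median of 63.2% of the ring, and in 143 of 455 cases of a ring with a peak in a library (31.4%) they covered it completely.

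Single-block rings carried peaks more often than rings of several blocks, a comparison that was chosen after the values were seen. Of the 76 single-block members 22 (28.9%) had a peak in some library, compared to 117 of 792 (14.8%). In the control libraries 26.3%, 23.7% and 23.7% of them had a peak, compared to 11.1%, 9.34% and 9.85%, and in the *E. coli* libraries 10.5%, 11.8% and 13.2%, compared to 5.30%, 6.44% and 4.55%. The mean difference was 10.4 ± 4.59 percentage points (SD, n = 6 libraries, higher in 6 of 6, p = 0.0312, the smallest that the exact sign-flip permutation test allows). The single-block rings were the shorter ones, with a median of 228 bases compared to 299.

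The leading peaks were ranked by fold enrichment, the ratio of IP to input signal in the deposited tables. Among peaks called in all 3 control libraries the highest means were those of PUM3, a protein of ribosome assembly, with 64.7, 137 and 35.5 (79.2 ± 52.5, SD, n = 3), and CHD6, a chromatin remodeler, with 96.8, 88.3 and 52.1 (79.1 ± 23.7). MPP5, an organizer of epithelial polarity, had 67.6, 90.3 and 77.9 (78.6 ± 11.4) on a block of 288 bases of its 368-base ring (chromosome 10, 79191962 to 79192249). The mean of PUM3 rested on well 2, and in well 3 it lay below MPP5, ATRX and CHD6. ARGLU1, a regulator of transcription and splicing, had 71.0, 57.7 and 36.5, ATRX, a chromatin remodeler of the X chromosome, had 62.9, 33.8 and 54.8, SUGP1, a splicing factor, had 70.9, 40.7 and 36.2, and the second block of MTCL1, a microtubule organizer, had 83.6, 38.7 and 18.6.

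In the *E. coli* group MPP5 was again among the highest with 48.4, 96.4 and 77.0 (73.9 ± 24.1, SD, n = 3). PTPN21, a tyrosine phosphatase, had 34.6, 67.2 and 94.1 over the whole of its single-block ring of 378 bases, SUGP1 had 49.4, 71.2 and 69.0, likewise over the whole ring of 356 bases, and PUM3 had 20.1, 81.8 and 82.5. NSD3, a histone methyltransferase, had 60.0, 74.2 and 40.7 and AKIRIN2, a nuclear factor in proteasome import and inflammatory gene expression, had 57.3, 49.7 and 58.3. The values of AKIRIN2 were more even than those of PTPN21 and PUM3. In control libraries PTPN21 had 26.1, 47.4 and 43.9, NSD3 had 39.0, 47.8 and 12.7 and AKIRIN2 had 66.1, 41.7 and 33.1. These values overlapped those of the *E. coli* libraries. The *E. coli* means were 1.67-fold, 1.76-fold and 1.17-fold those of control, but a choice of rings by high *E. coli* values itself favors such ratios. The ratio was 1.28 for SUGP1, while MPP5 (0.940) and PUM3 (0.776) had higher means in control.

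A peak was called in all 6 control and *E. coli* libraries at 32 places on short exonic circRNAs, with peaks that share at least 1 base taken as the same place. Their mean fold enrichment was higher in the *E. coli* group at 18 of the 32, compared to 304 of the 432 such places of all circRNAs. The median ratio was 1.18 (range 0.561 to 1.84), compared to 1.14 over the 432. At 4 places (12.5%) every *E. coli* value lay above every control value, and at 1 place (3.12%) every value lay below, compared to 9.49% and 1.62% of the 432. The place below was on the ring of EIPR1, a protein of vesicle trafficking (257 bases), with 43.9, 45.8 and 37.6 in control and 30.7, 33.2 and 35.0 in *E. coli* libraries, the first of which had a shorter peak of 24 bases there. The places above were both blocks of MAP4, which stabilizes microtubules, a block of CREB3L2, a transcription factor anchored in the endoplasmic reticulum, and TGS1, a methyltransferase of RNA caps (27.9, 26.6 and 20.5 compared to 34.6, 32.6 and 33.9). The longer block of MAP4 (chromosome 22, 51892560 to 51892775) had 12.1, 11.1 and 15.2 in control and 17.8, 24.0 and 28.9 in *E. coli* libraries, a ratio of 1.84. The block of CREB3L2 (chromosome 4, 101627912 to 101628096) had 30.2, 24.7 and 16.5 compared to 42.7, 43.7 and 34.9. CHD6, with 67.3, 46.9 and 19.0 in *E. coli* libraries, had the lowest ratio (0.561), but its groups overlapped.

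**Figure D5:**
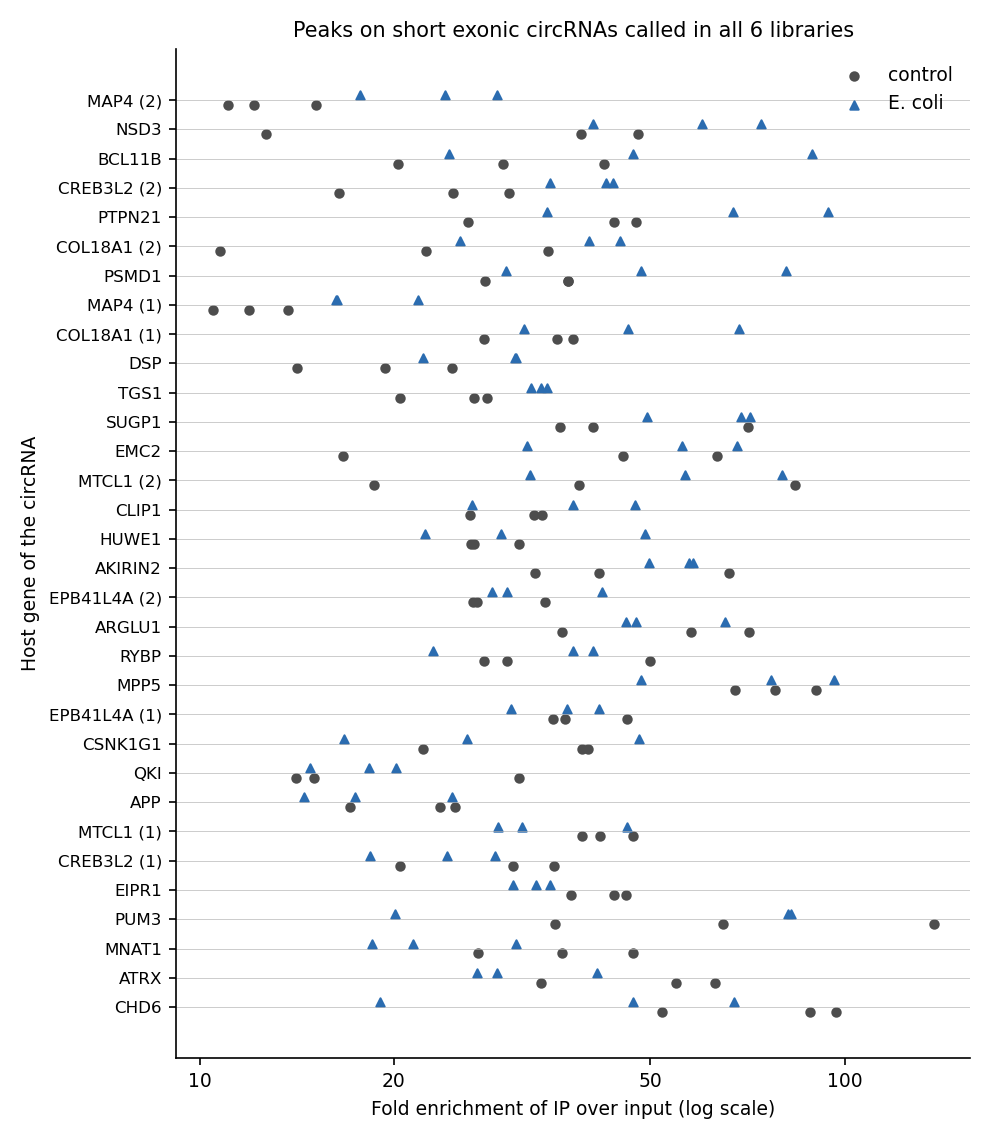
Fold enrichment of IP over input (horizontal log axis) at the 32 places on short exonic circRNAs with a peak in all 3 control (circles) and all 3 *E. coli* libraries (triangles), ordered from the lowest ratio (CHD6, 0.561) at the bottom to the highest (MAP4, 1.84) at the top. Numbers in brackets tell blocks of the same ring apart, and the groups overlap at 27 of the 32 places.

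Over all peaks of a library, the median fold enrichment on short exonic circRNAs was 22.6, 23.1 and 16.6 in control, 30.8, 28.7 and 34.4 in *E. coli* and, from 1 and 2 peaks, 66.9 and 47.7 in *S. aureus* wells 2 and 3. The *E. coli* values all lay above the control values (p = 0.10, exact permutation test), and the lowest value that was called differed as well, with 6.25 to 9.28 in control and 11.8 to 17.4 in *E. coli* libraries. With the median of all control peaks as a common floor, the medians were 33.9, 31.4 and 27.6 in control and 33.4, 32.4 and 40.5 in *E. coli* libraries. The groups then overlapped, and the difference fell from 10.5 to 4.46 (p = 0.300, exact permutation test). The medians were slightly below those of longer exonic circRNAs in the 6 control and *E. coli* libraries, by 1.36 ± 1.47 (SD, n = 6, lower in 6 of 6, p = 0.0312, exact sign-flip permutation test), and in 7 of the 8 libraries with a peak (p = 0.117, exact sign-flip permutation test).

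Peaks that were present in a treated group without any control peak on the ring were few. Of the 84 short rings with an *E. coli* peak, 88.1% also had a control peak and 10 did not. By the paper's counts, rings without a control peak took a smaller share over the whole series. This comparison rests on only 10 short rings, most of them with a peak in 1 library, so it does not set the short class apart. RUNX2, a transcription factor of bone that is also expressed in mammary epithelium, gave the only short ring with a peak in all 3 *E. coli* libraries and in no control library. Its fold enrichment was 49.4, 43.1 and 43.4 (45.3 ± 3.57, SD, n = 3) on a block of 162 bases (chromosome 23, 18785380 to 18785541) of a ring of 336 bases, at an FDR of 2.02 to 3.24%. That FDR does not single the peak out, since the medians of the *E. coli* libraries were 3.06%, 2.12% and 3.36%. The scores of the RUNX2 peak were 88.2, 101 and 120. The ring had 2, 0 and 0 junction reads in control and 0, 2 and 0 in *E. coli* wells. A further 9 rings had a peak in 1 or 2 *E. coli* libraries and in no control library, namely in 2 libraries for BCL2L11, which drives apoptosis, and VAV2, an activator of small GTPases, and in 1 library for each of the others, among them ITGB4, an integrin of hemidesmosomes, CTTN and H2AFY. In the *S. aureus* group only 2 short rings had a peak. The ring of ARGLU1 (310 bases, chromosome 12, block 82313586 to 82313811) had a fold enrichment of 66.9 and 79.3 in wells 2 and 3, at the same edges as in all control and *E. coli* libraries, and was the only place called in 8 libraries.

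Peaks and junction reads of a ring were often not found in the same well. Of the short members with a peak in a control library 25.9%, 17.4% and 28.1% had a junction read in the input of that well, compared to 16%, 15.0% and 21.7% in *E. coli* and 0% in *S. aureus* wells 2 and 3. The *E. coli* difference of -6.23 percentage points was within the spread (p = 0.20, exact permutation test). Conversely, members detected in a well had a peak there about as often as members that were not. In control wells it was 14.5%, 8.79% and 11.6% of the detected and 11.9%, 11.1% and 10.8% of the undetected members, and in *E. coli* wells 5.71%, 6.57% and 8.13% compared to 5.77%, 6.98% and 4.83%. The difference over these 6 wells was 0.665 ± 2.06 points (SD, n = 6, p = 0.438, exact sign-flip permutation test). A peak on an exon block does not show whether the precipitated RNA was the ring or a linear transcript of the same exons, and these cannot be told apart here.

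Only 3 short rings had a peak and a junction read together in at least 3 wells. BCL11B, a zinc finger transcription factor, gave a single-block ring of 369 bases (chromosome 21, 64276728 to 64277096) with 2, 1 and 1 reads in control, 0, 0 and 1 in *S. aureus* and 0, 2 and 1 in *E. coli* wells. Its peak covered the whole ring, with 42.3, 29.6 and 20.3 in control and 47.0, 88.9 and 24.3 in *E. coli* libraries, and met a read in 5 wells. APP, the amyloid precursor protein, gave a ring of 307 bases with 0, 0 and 1 reads in control and 1, 1 and 4 in *E. coli* wells and a fold enrichment of 23.6, 24.9 and 17.1 in control and 14.5, 24.6 and 17.4 in *E. coli* libraries. ATRX gave a ring of 308 bases with 0, 4 and 1 reads in control and 0, 0 and 1 in *E. coli* wells. Of the 10 rings with most reads, LMO7, MED17, SLC30A7, USP3, SMC5, GFM2, YAF2 and ANKS3 had no peak in any library, LOC101907523 had a peak of 22.1 and 15.7 in control wells 1 and 2, and FAM126A had one of 21.0 in control well 1.

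By list, peaks were found on 11 of the 58 adhesion, matrix and actin members (19.0%), 7 of 37 kinase and phosphatase members (18.9%), 6 of 32 chromatin members (18.8%), 5 of 30 RNA processing members (16.7%) and 4 of 25 ubiquitin members (16%), beside 16% of all short exonic circRNAs. None of the 30 membrane trafficking members and none of the 7 immunity and cell death members carried a peak in any of the 9 libraries. These zeros hold for the listed genes alone, since rings of GDI2 and GOLPH3, which act in membrane traffic, and of OTULIN, which trims ubiquitin chains in inflammatory signaling, are outside both lists and had peaks in all 3 control libraries. COL18A1, a collagen of basement membranes outside the list, had 34.7, 22.4 and 10.8 on its shorter block in control and 25.4, 40.2 and 44.8 in *E. coli* libraries, and DSP, the desmosome protein desmoplakin of the adhesion list, had 24.7, 19.4 and 14.2 compared to 22.2, 30.8 and 30.9.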

How the data were processed

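MAC-T wells and their input and IP libraries were grouped by the labels. The authors enriched circRNA, sequenced paired-end directional libraries, trimmed with cutadapt 1.9.3, used STAR 2.5.1b for alignment to bosTau9 and called circRNAs by DCC. They deposited back-splice junction counts and log2 values normalized with edgeR 3.16.5, in which a count of 0 was entered as 0.1 and which were not used here. Their peak tables, 1 for each IP library, hold fold enrichment (a ratio to the input), a score and an FDR in percent, as deposited. Peak names point to MACS, and version and settings are not given in the sources used here. Clean read totals came from the study.

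Junction counts were tested with edgeR 4.0.16 (glmQLFTest, R 4.3.3, group as the only term, all 3 groups in the fit) where 3 or more libraries had 2 or more reads of a circRNA. On simulated counts of the same depth this test missed most of the changes put in. A lack of calls after adjustment therefore does not show that no ring changed. DESeq2 1.42.0 was an alternative. Library values were compared by exact two-sided permutation tests (numpy 2.4.6), over wells between groups and by sign flips within libraries between classes. Peaks sharing at least 1 base on a ring were merged within a group, or over libraries for places called in 6 libraries. Depth was 361 to 2057 junction reads per library, so single rings had few reads. No library held the same counts as another. Wells with the same number did not deviate together. Of the 731 host symbols, 713 were found in RefSeq, which also gave chromosome numbers. Sequences of the rings are not analysed here.

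The members, lists and tests were chosen with earlier results of these data known. Named circRNAs were all those tested, the 10 with most reads, in each group the 10 peaks highest in mean fold enrichment among those called in all 3 libraries, rings with peaks in all 3 libraries of a treated group and no control peak, rings with peak and read in at least 3 wells, the leading hosts, the 3 shortest, and up to 4 per list, of which those with informative values are given. BCL2L11, VAV2, ITGB4, GDI2, GOLPH3, OTULIN, COL18A1 and DSP were named after their values were seen. Alternatives were other length limits, detection limits, library totals, filters and tools, a block for the well number and each well left out. Some items that these rules select are not reported here.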

Additional observations from a re-analysis of the deposited data

How the results depend on the processing

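The lower rate of junction reads in the *S. aureus* group than in control kept its direction under the other length and detection limits, but with total junction reads as the library total it becomes the share of reads, which did not differ in a stable direction. The lower number of peaks kept its direction, except that an FDR of at most 5% left no peak in control or *S. aureus* libraries. Between control and *E. coli* libraries this FDR did not follow the peak score. At that FDR the *E. coli* group had 52.0 peaks more than control instead of fewer (-61.7), and the class differences over 9 libraries were -1.07 and -4.68 points (p = 0.250 each, the smallest the exact test then allows, since only the 3 *E. coli* libraries had peaks, all lower in the short class). Peaks per kilobase turned the class differences to +0.0252 and +0.0151. The small *S. aureus* minus control difference in the share of junction reads (-0.128) became 1.65 with a limit of 300 and 0.636 with a limit of 500 bases, 2.09 among circRNAs seen in at least 2 libraries and, chosen after seeing the data, 0.396 without the 10 leading members and 1.5 of exonic reads. It ranged from -2.74 to 1.57 with each well left out. Its counterpart for detected circRNAs (0.273) became -0.101 with at least 2 reads and ranged from -1.67 to 1.40. With a limit of 300 bases, *S. aureus* minus *E. coli* became 0.838 for reads and 0.121 for detected circRNAs. With total junction reads as the library total, the *E. coli* minus control difference in reads was +4.52 percent. The number of members lower in *S. aureus* than control was 1 without TMM, 9 with clean reads as library size and 2 by DESeq2. For *E. coli* against control it was 0 without TMM, by DESeq2 and by the exact test, and 2 with clean reads or with at least 1 read in 3 libraries. The last filter gave 2 members higher in *S. aureus*. With each well left out these counts ranged from 0 to 6, 0 to 2 and, for members higher in *S. aureus* than *E. coli*, 0 to 1. Wells of the same number did not pair, and with a replicate block the counts lower were 3, 0 and 2. The sign flips over 3 pairs of the replicate block allow no p below 0.250. The causes were not tested. Peaks over annotated exons only could not be selected, since no annotation of the build was used here. The counts of reads limit every statement on a single ring.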
